A study of Mus musculus with 8 samples.

Results

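A set of 9 pluripotency factors, Pou5f1, Nanog, Sox2, Klf4, Utf1, Zfp42, Esrrb, Tdgf1 and Dppa3, was examined in RNA-seq data of germline stem (GS) cells. They were taken by name, as genes known from embryonic stem (ES) cells and early germ cells, with earlier results of these data known. They are 9 of the 31010 genes listed in the deposited table. GS cells are cultured spermatogonia that contain spermatogonial stem cells and expand with GDNF and FGF2. The 8 lines came from F1 mice on a B6 background, all labelled WT. The 4 control-F1 lines (29, 37, 44 and 45) came from mice sired by natural mating and are labelled as having had no treatment. The 4 ICSI-F1 lines (11, 17, 20 and 21) came from mice produced by intracytoplasmic sperm injection (ICSI), in which a spermatozoon is injected into the oocyte, and carry the treatment ICSI. Each line was started from adult testis cells selected with magnetic beads for the surface protein CD9, and all lines were grown in 1 medium. Nothing in the labels ties a line to its own mouse. The line numbers also appear among the numbered F1 mice whose tail DNA the study examined. The study does not state that each line came from the mouse of its number. Here n counts lines, and p-values measure only the spread between these lines, which may in part be technical. The exact age of the mice is not given in the sources used here.

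The sample titles are written in 2 forms. Titles of label form 1, joined by hyphens, name control 29, control 37, ICSI 11 and ICSI 17, and titles of label form 2, joined otherwise, name control 44, control 45, ICSI 20 and ICSI 21. The submitters' processing notes name different tool versions for the forms, with STAR 2.7.9a for form 1 and STAR 2.6.0c for form 2. Because each form holds 2 lines of each group, the forms were compared as a possible technical split, and the values within each form are given beside the pooled ones. Expression is given in FPKM, fragments per kilobase of gene and per library size. The library size implied by the values was not the plain total of reads recovered. It was 32750364 against 34232487 reads in control line 44 and 26476965 against 24698063 in control line 29. The reads recovered from these values numbered 24698063 to 44265567 per line, and all 4 form 2 lines were deeper than the form 1 lines. All 9 markers of germ cells and undifferentiated spermatogonia were above the mean of 1 FPKM required here for a test (the filter), and their summed level ranged from 644 to 768 FPKM in form 1 and from 910 to 1081 FPKM in form 2. All 12 fibroblast markers were also above it, at sums of 222 to 930 FPKM in control and 275 to 567 FPKM in ICSI lines, with the highest sums in control lines 29 (930 FPKM) and 44 (872 FPKM). According to the study's methods, embryonic fibroblasts were removed from GS cultures on gelatin before collection. The 8 Sertoli markers summed to 5.72 to 9.25 FPKM. Of the 8 markers of meiotic and haploid germ cells, which summed to 125 to 224 FPKM, Tnp2, Prm1 and Prm2 were listed at 0 in every line.

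Pluripotent cells are held in an undifferentiated state by a network of transcription factors in which Pou5f1 (also called Oct4) and Sox2 bind DNA together and Nanog, Klf4 and Esrrb reinforce the state. The germline shares some of these genes. Pou5f1 is transcribed in primordial germ cells and in undifferentiated spermatogonia, and Dppa3 (Stella) marks primordial germ cells and the oocyte. Spermatogonia in culture are known to transcribe Pou5f1 while remaining committed to the germline, and on rare occasions convert into ES-like multipotent cells.

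The POU and SOX proteins read short DNA motifs, and GC-rich boxes are common in promoters, so the promoters of the factors are shown first. RefSeq windows of 300 bases (GRCm38.p6, 250 before to 50 after the start) were found for 8 of the 9 genes, all but Dppa3, and 11 windows were searched on both strands for the octamer core ATGCAAA, the SOX core CATTGT and the GC box GGGCGG. Among 32851 windows, 4.63% held the octamer core, 1.74% the full octamer ATGCAAAT that contains it, 12.6% the SOX core and 35.7% the GC box. A link between these motifs and the levels of the genes was not tested. The stretches below lie before the transcribed bases, on the gene's strand. Capitals mark the octamer core or its reverse complement in Nanog, Sox2 and Zfp42 and the GC box in Pou5f1 and Utf1.
Nanog, chr6:122707388-122707447 (+): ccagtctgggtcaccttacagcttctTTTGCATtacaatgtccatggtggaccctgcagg
Sox2, chr3:34649870-34649929 (+): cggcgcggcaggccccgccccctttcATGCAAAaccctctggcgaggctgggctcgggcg
Zfp42, chr8:43307161-43307220 (-): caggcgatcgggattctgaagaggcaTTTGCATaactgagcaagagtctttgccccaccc
Pou5f1, chr17:35505961-35506017 (+): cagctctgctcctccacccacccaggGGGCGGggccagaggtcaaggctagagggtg
Utf1, chr7:139943692-139943751 (+): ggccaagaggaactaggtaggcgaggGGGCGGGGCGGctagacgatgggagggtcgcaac

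The octamer cores were found at -75 in Nanog, -509 in Sox2 and -214 in Zfp42, counted from the start of the GENCODE gene, and the Zfp42 match was the full octamer. The windows were placed on RefSeq starts. For Sox2 that start (34649995) lies before the GENCODE start (34650405), so its octamer core is nearer to the RefSeq start than -509. In Nanog, a SOX core on the reverse strand followed the octamer core at -67. SOX cores also lay at 32 in Esrrb and at 2631 in the second window of Pou5f1. Pou5f1 held 1 GC box, at -31, and Utf1 held 4 in its window, of which those at -71 and -66 overlap. Klf4 also held 4 GC boxes, Zfp42 and Sox2 held 2 each and Tdgf1 held 1. A match is a description of the sequence, and no binding was measured in these samples.

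The levels of the factors were compared first. Klf4, a zinc finger factor of the KLF family, had the highest mean, 30.2 FPKM over the 8 lines, and was above 93.9% of all genes listed or equal to them. Its values were 33.2, 27.5, 26.9 and 36.4 FPKM in control lines 29, 37, 44 and 45 and 28.1, 26.9, 29.1 and 33.6 FPKM in ICSI lines 11, 17, 20 and 21. It varied least among the factors, with a coefficient of variation of 12.1%. Pou5f1 followed with a mean of 18.9 FPKM. Its level was 28.2, 26.3, 11.2 and 12.6 FPKM in the control lines and 22.4, 18.0, 15.7 and 16.6 FPKM in the ICSI lines, in the same order of lines. The 2 lowest values were those of control lines 44 and 45, and the 2 highest those of control lines 29 and 37.

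Zfp42 (Rex1), a zinc finger gene used as a marker of ES cells, averaged 8.89 FPKM. It was at 8.37, 7.56, 12.4 and 10.0 FPKM in the control lines and at 7.44, 6.45, 11.7 and 7.21 FPKM in the ICSI lines. Utf1, a chromatin-associated factor of ES cells and spermatogonia, averaged 7.87 FPKM and was at 13.2, 12.8, 2.66 and 4.36 FPKM in the control lines and at 9.51, 10.7, 2.32 and 7.40 FPKM in the ICSI lines. The highest Utf1 value was 5.72-fold the lowest. Esrrb, an orphan nuclear receptor of the naive network, averaged 3.48 FPKM. Its level was 3.01, 3.21, 3.14 and 2.57 FPKM in the control lines and 3.86, 4.68, 3.09 and 4.24 FPKM in the ICSI lines. Dppa3 averaged 1.51 FPKM and ranged widest among the factors above the filter, with values of 2.37, 2.29, 0.582 and 1.09 FPKM in the control lines and of 2.90, 1.59, 0.253 and 0.975 FPKM in the ICSI lines. The Dppa3 values rest on 7 to 68 reads per line.

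Sox2, Nanog and Tdgf1 were under the mean of 1 FPKM required for a test over all genes, as were 61.3% of the genes listed. Sox2, the partner of Pou5f1 on DNA in ES cells, was at 0.643, 0.994, 1.37 and 0.551 FPKM in the control lines and 0.702, 0.742, 0.675 and 1.03 FPKM in the ICSI lines, from 35 to 92 reads per line. Nanog, a homeobox factor of naive pluripotency, was at 0.0259 to 0.111 FPKM. That level rests on 2 to 7 reads per line and 37 reads in all (exact 95% Poisson interval 26.1 to 51.0). Tdgf1 (Cripto), a co-receptor for NODAL, had 10 reads in all (exact 95% Poisson interval 4.8 to 18.4). Its reads numbered 1 or 2 in each control line and in ICSI lines 11 and 17, and 0 in ICSI lines 20 and 21, where the exact 95% Poisson interval of a count of 0 reaches 3.69 reads. These intervals cover counting error only.

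**Figure D1:**
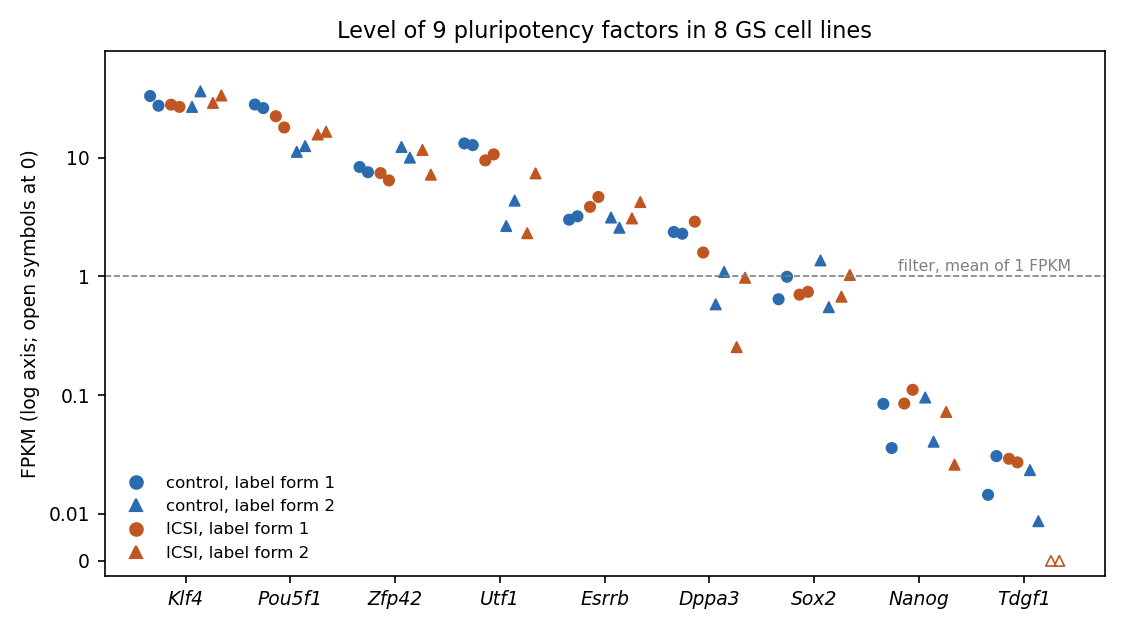
Level of each of the 9 factors in the 8 GS cell lines, in FPKM on a log axis, with genes ordered by their mean, one symbol per line, circles for label form 1 and triangles for label form 2, and open symbols for values of 0. Sox2 lies at 0.551 to 1.37 FPKM and Nanog at 0.0259 to 0.111 FPKM, so the ranges of this neighbouring pair do not overlap.

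The order of the means was Klf4, Pou5f1, Zfp42, Utf1, Esrrb, Dppa3, Sox2, Nanog and Tdgf1. FPKM is per length, so these levels can be set beside each other. Of the 8 neighbouring pairs, only Sox2 and Nanog had ranges over the lines that did not overlap, and their means differed by 12.2-fold. The ranges of the other pairs overlapped. Even so, Klf4 was above Pou5f1 and Esrrb above Dppa3 within each of the 8 lines, and Pou5f1 was above Zfp42 in 7. Nanog was also above Tdgf1 in each line, but on so few reads that counting error could change the order. In control line 37 both had 2 reads, and only their lengths set them apart. Utf1 was above Esrrb in 6 lines. The levels of Zfp42 and Utf1 were not separated beyond the spread between lines, with Zfp42 higher in 3 of the 8 lines, and neither were those of Dppa3 and Sox2, with Dppa3 higher in 5.

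Most factors do not share reads with another gene in the annotation. Pou5f1 (mm10 chromosome 17, 35506018 to 35510772) shares exonic bases with the antisense gene Gm19553, which was listed at no more than 0.081 FPKM. A stranded kit is named in the study's methods and another kit in the labels, so whether reads of the pair were told apart is uncertain. Sox2 (chromosome 3, 34650405 to 34652461) lies inside Sox2ot on the same strand, with no shared exonic bases. Dppa3 (chromosome 6, 122626410 to 122630272) and Tdgf1 (chromosome 9, 110939603 to 110946158) have processed pseudogenes with 98.2% identity over 451 bases and 98.8% over 512 bases, so their values are uncertain where reads could map to both copies, which was not tested.

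The lines were made to study the germline of ICSI-F1 mice, and ICSI-F1 was therefore compared with control-F1. None of the 6 factors tested passed the threshold between the groups. The test was limma on log2(FPKM + 1) over the 12000 genes whose mean reached 1 FPKM, with Benjamini-Hochberg adjustment, and 0 genes passed an adjusted p of 0.05 (0.0%), with 55 (0.458%) at an unadjusted p under 0.05. This last count rose to 140 with the label form as covariate, 225 without control line 44 and 389 without ICSI line 20, while 0 genes passed the adjusted threshold in these fits. The adjusted p of each of the 6 factors was 1.0. All differences below are ICSI minus control in log2(FPKM + 1), on which changes at low FPKM look smaller than they are.

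Pou5f1 was at 19.6 ± 8.90 FPKM in control-F1 and 18.2 ± 2.98 FPKM in ICSI-F1 lines (SD, n = 4 each), a log2 difference of -0.0019 with a 95% interval from -0.65 to 0.64 in limma. Klf4 was at 31.0 ± 4.58 and 29.4 ± 2.91 FPKM (SD, n = 4 each), a difference of -0.068 with an interval from -0.35 to 0.22. The interval for Klf4 was the narrowest of the 6. Utf1 was at 8.27 ± 5.54 and 7.48 ± 3.70 FPKM (SD, n = 4 each), and its interval, from -1.21 to 1.13 around -0.043, was the widest. Zfp42 differed by -0.21 (interval -0.66 to 0.23) and Dppa3 by -0.14 (interval -0.95 to 0.67). With the label form as covariate the differences were the same and the intervals narrower, from -0.39 to 0.38 for Pou5f1, -0.68 to 0.59 for Utf1 and -0.58 to 0.30 for Dppa3, and no factor passed. The groups overlapped in all 9 factors, where 0.442% of the genes tested had groups that did not.

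Esrrb had the smallest p of the factors. It was at 2.98 ± 0.287 FPKM in control-F1 and 3.97 ± 0.676 FPKM in ICSI-F1 lines (SD, n = 4 each), a log2 difference of 0.31 (95% interval 0.0068 to 0.61, limma). Of the ICSI lines, 3 were above all 4 control lines, and ICSI line 20, at 3.09 FPKM, was below control lines 37 and 44. The unadjusted limma p was 0.046, at rank 47 of 12000 genes, the adjusted p was 1.0, and the exact two-sided permutation p was 0.0857, where 0.0286 is the smallest that 70 assignments allow. Within the forms the Esrrb difference was 0.35 in form 1 and 0.27 in form 2. With the label form as covariate the interval for Esrrb was 0.034 to 0.59 (unadjusted limma p 0.032), and it did not pass after adjustment. This gene therefore fails the correction over all genes.

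For the 3 factors under the filter only the values and the exact permutation test are given. Sox2 was at 0.888 ± 0.371 FPKM in control-F1 and 0.787 ± 0.164 FPKM in ICSI-F1 lines (SD, n = 4 each; exact two-sided permutation p = 0.714). The exact permutation p was also 0.714 for Nanog and was 0.6 for Tdgf1 (n = 4 each). The Nanog values rest on 2 to 7 reads per line, and the size of difference that this depth could show was not determined. The exact permutation p of the other 6 factors ran from 0.0857 for Esrrb to 1.0 for Pou5f1 (n = 4 each).

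**Figure D2:**
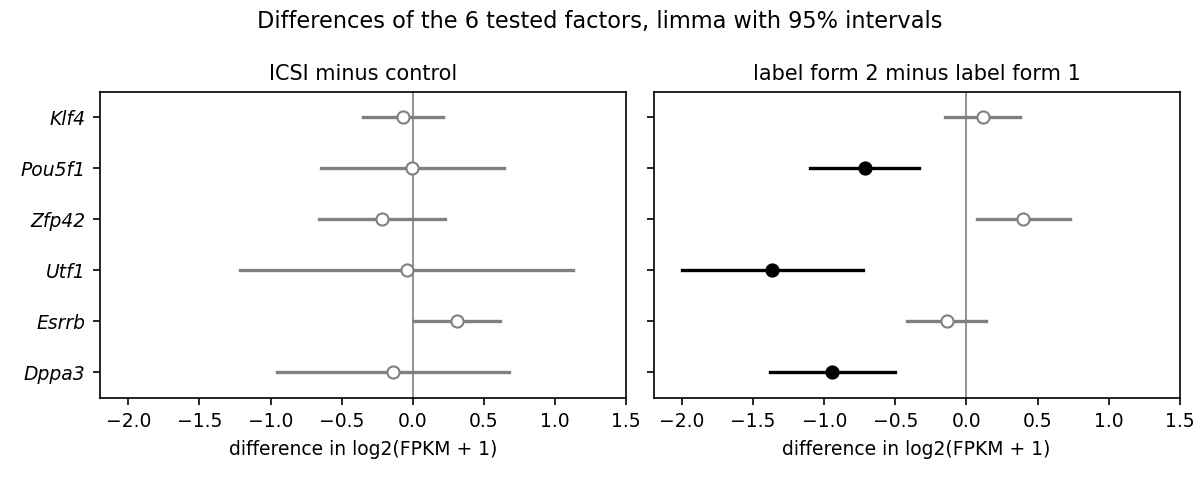
Difference in log2(FPKM + 1) with its 95% interval from limma for the 6 factors above the filter, for ICSI minus control lines on the left and label form 2 minus label form 1 on the right, with filled black points for an adjusted p under 0.05. No factor passed on the left, and Pou5f1, Utf1 and Dppa3 passed on the right, at -0.72, -1.37 and -0.94.

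The factors differed between the label forms. Pou5f1, Utf1 and Dppa3 were lower in form 2 than in form 1. So 3 of the 6 factors tested passed the threshold, all of them lower. Among the 12000 genes, 16.0% passed, 10.2% higher and 5.76% lower. The factors were chosen with earlier results of these data known, so these shares do not measure an enrichment. Dppa3 was among the 6 only through its form 1 level. In limma with the group as covariate, Pou5f1 differed by -0.72 ± 0.17 (SE; 95% interval -1.10 to -0.33, adjusted p = 0.0286). Of all calls, 64.0% were higher in form 2, against 50.8% with quantile normalization and 54.7% with TPM, and Pou5f1, Utf1 and Dppa3 were lower under both. The mean of Pou5f1 was 23.7 ± 4.48 FPKM in form 1 and 14.0 ± 2.55 FPKM in form 2 (SD, n = 4 each), a 1.69-fold difference. The 4 form 1 lines, at 18.0 FPKM or more, were all above the 4 form 2 lines, at 16.6 FPKM or less.

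Utf1 differed by -1.37 ± 0.28 (SE; limma adjusted p = 0.0203), with means of 11.6 ± 1.76 and 4.18 ± 2.32 FPKM (SD, n = 4 each), a 2.76-fold difference. The lowest form 1 line was at 9.51 FPKM and the highest form 2 line, ICSI line 21, at 7.40 FPKM. Dppa3 differed by -0.94 ± 0.19 (SE; limma adjusted p = 0.0204), with means of 2.29 ± 0.537 and 0.726 ± 0.383 FPKM (SD, n = 4 each), a 3.15-fold difference. Dppa3 passed the filter only through form 1, since its form 2 mean was under 1 FPKM. Its form 2 values rest on 7 to 43 reads per line. Its difference depended on the scale, at -1.75 with limma-voom, -1.65 with a pseudocount of 0.1 and -1.48 with TPM, all past the threshold. Its form 1 lines, at 1.59 FPKM or more, were also all above its form 2 lines, at 1.09 FPKM or less. The exact two-sided permutation p was 0.0286 for each of the 3 genes, the smallest that 4 lines against 4 allow. Among all genes tested, the forms did not overlap in 26.8%, and 10.8% were lower in form 2 without overlap.

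Because the forms did not overlap in Pou5f1, Utf1 and Dppa3, they were necessarily also apart within each group. The ratios below give sizes only. In control lines the form 1 mean was 2.29-fold the form 2 mean for Pou5f1, 3.71-fold for Utf1 and 2.79-fold for Dppa3. In ICSI lines these ratios were 1.25, 2.08 and 3.65. These ratios rest on 2 lines in each form and were not tested.

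**Figure D3:**
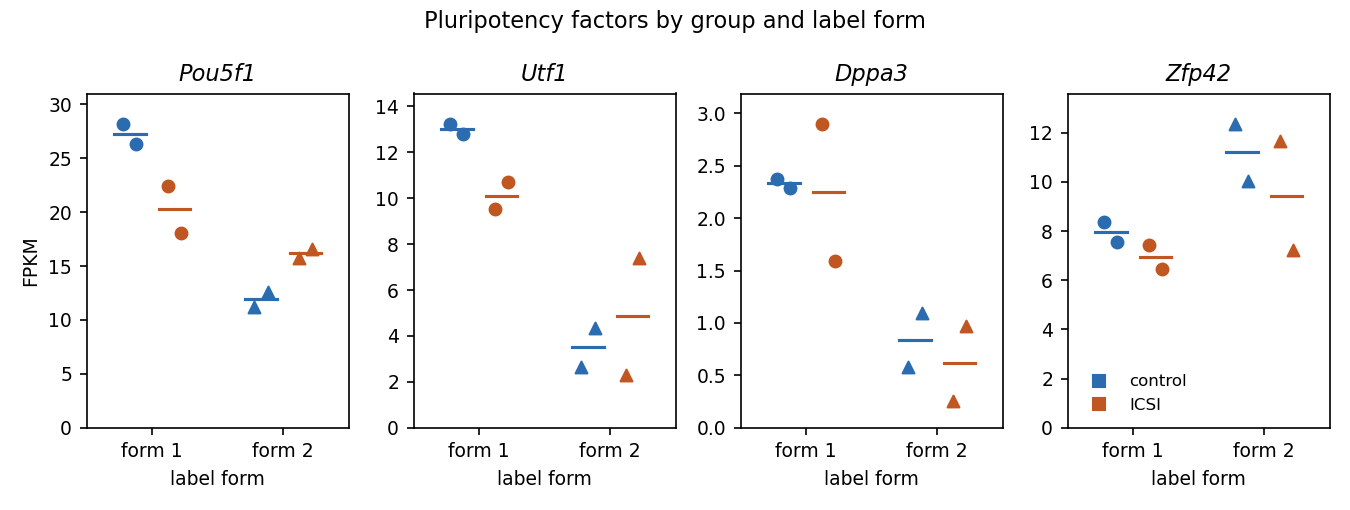
FPKM of Pou5f1, Utf1, Dppa3 and Zfp42 in control (blue) and ICSI (orange) lines of each label form, with a point per line and a bar at the mean of each pair of lines. Pou5f1, Utf1 and Dppa3 are lower in form 2 without overlap, whereas Zfp42 overlaps between the forms, at 6.45 to 8.37 FPKM in form 1 and 7.21 to 12.4 FPKM in form 2.

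The other 3 factors tested did not pass. Zfp42 had values in the opposite direction, with a difference of 0.40 (95% interval 0.071 to 0.73, limma adjusted p = 0.0882, exact permutation p = 0.114, n = 4 each), and passed only without ICSI line 21 (0.53, adjusted p = 0.0206). Klf4 differed by 0.11 (interval -0.15 to 0.38) and Esrrb by -0.14 (interval -0.42 to 0.14). Sox2 was at 0.770 ± 0.155 FPKM in form 1 and 0.905 ± 0.368 FPKM in form 2 (SD, n = 4 each), and the forms overlapped in Sox2, Nanog and Tdgf1.

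The calls for Pou5f1, Utf1 and Dppa3 lay close to the threshold, and leaving out a single line ended several of them while the direction stayed. Pou5f1 passed under 3 of the 8 omissions and lost its call without control line 29, 37, 44 or 45 or ICSI line 11 (adjusted p in limma 0.0614 to 0.0907). Utf1 lost it without control line 29, 37 or 44 or ICSI line 11 or 17 (0.0508 to 0.0673), and Dppa3 without control line 37 or 44 or ICSI line 11 (0.0566 to 0.0694). Without control lines 29 and 44 together, an omission chosen after seeing the data because these lines had the highest fibroblast marker sums, the adjusted p was 0.0989 for Pou5f1, 0.0824 for Utf1 and 0.0779 for Dppa3, and 401 genes passed.

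Markers of other cell types moved in part with the forms. Of the 9 markers of germ cells and undifferentiated spermatogonia, 6 rose in form 2 (Etv5, Dazl, Id4, Gfra1, Ret and Ddx4) and 0 fell, where 10.2% of all genes tested rose and 5.76% fell. These 6 ran opposite to Pou5f1, Utf1 and Dppa3. The marker lists were also chosen with earlier results known, so their counts do not measure an enrichment. Of the 12 fibroblast markers, 0 passed in limma and 0 had an unadjusted p under 0.05. The 2 lines with the highest fibroblast sums, control 29 and control 44, had the highest and the lowest Pou5f1 level. Of the Sertoli markers, Sox9 rose and Wt1 fell among 3 tested, and of the meiotic and haploid markers Sycp1 and Sycp3 rose among 4 tested. The other 2 meiotic and haploid markers tested ran the other way and did not pass. Spo11 differed by -0.96 (limma adjusted p = 0.0645) and Tnp1 by -0.088. Between ICSI and control lines, 0 genes of the 4 lists passed in limma, and 0 had an unadjusted p under 0.05. The part of cell composition, depth and tool version in the label form difference was not tested. In bulk RNA, fewer cells of a type and less RNA per cell cannot be told apart.

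Pou5f1 also differed in how ICSI and control lines compared within the forms. In form 1 both ICSI lines, at 22.4 and 18.0 FPKM, were below both control lines, at 28.2 and 26.3 FPKM, a log2 difference of -0.42. In form 2 both ICSI lines, at 15.7 and 16.6 FPKM, were above both control lines, at 11.2 and 12.6 FPKM, a difference of 0.41. Among the 12000 genes tested, 1.11% had this same arrangement and 2.24% had it in either order. The interaction in limma was 0.83 ± 0.20 (SE; 95% interval 0.37 to 1.3), with an unadjusted p of 0.0036 at rank 3 of 12000 genes and an adjusted p of 1.0. No gene passed the adjusted threshold in this fit (0.0%), and 147 (1.23%) had an unadjusted p under 0.05. The pooled Pou5f1 difference near 0 therefore averaged opposite values from the forms.

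The other genes of the pluripotency network were taken from a list of 37, of which 23 were above the filter. The highest means were those of Trim28, a co-repressor that silences retroelements (140 FPKM), Tcf3, which encodes the E proteins (73.4 FPKM), Lin28a, an RNA-binding protein that blocks let-7 maturation (62.8 FPKM), and Dppa4, a chromatin-associated factor (42.8 FPKM). The symbol Tcf3 here is the E2A gene, and Tcf7l1, the ES cell factor that shares the older name TCF3, was not on the list. Of the 11 naive state genes, 7 were above the filter and 4, Nr0b1, Prdm14, Fgf4 and Gdf3, had a mean under 0.1 FPKM. Of the 4 primed state or lineage genes, Pou3f1 and T were above the filter, and Otx2 and Fgf5 had a mean under 0.1 FPKM.

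Between ICSI and control lines, 0 of the 23 genes passed in limma. At an unadjusted p under 0.05 there was 1 gene, Dppa2, named after its value was seen, with a log2 difference of 0.37 (unadjusted p 0.0146, adjusted p 1.0). The median difference of the list was -0.0010, beside -0.013 for all genes tested.

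Between the label forms, 4 of the 23 genes rose in form 2, 2 fell and 17 did not pass, where 10.2% of all genes tested rose and 5.76% fell. The median was 0.030 beside 0.028 for all genes tested. Klf2, a KLF factor of the naive state, rose from 6.47 ± 1.18 FPKM in form 1 to 16.2 ± 2.31 FPKM in form 2 (SD, n = 4 each; difference 1.21, limma adjusted p = 0.0079). Its form 1 lines were at 5.44 to 7.62 FPKM and its form 2 lines at 14.4 to 19.4 FPKM, with no overlap. Tcl1, a co-activator of AKT, rose from 20.5 ± 1.26 to 44.6 ± 16.3 FPKM (difference 1.01, limma adjusted p = 0.0282). Pou3f1, a POU factor of spermatogonia and of the primed state, rose by 0.61 (adjusted p = 0.0146) and Sall4, a zinc finger factor of germ and ES cells, by 0.40 (adjusted p = 0.0411). Dnmt3l, a cofactor of de novo DNA methylation in the germline, fell from 4.80 ± 1.38 to 1.92 ± 0.918 FPKM (difference -1.01, limma adjusted p = 0.0319), and Sox15, a SOX factor, from 4.11 ± 1.31 to 1.74 ± 0.253 FPKM (difference -0.87, limma adjusted p = 0.0229). Under quantile normalization and rescaling to TPM, 3 of the list rose and 2 fell. The calls of the list were also sensitive to single lines, with 1 gene passing without control line 37, ICSI line 11 or ICSI line 17 and 3 without control line 44 or 45.

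**Figure D4:**
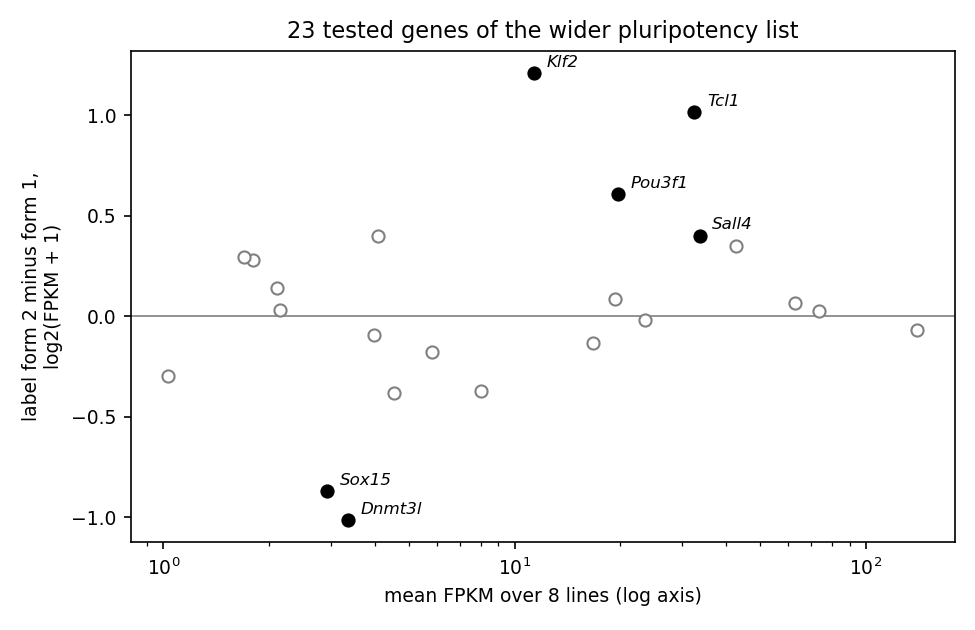
Difference between label form 2 and label form 1 in log2(FPKM + 1) against the mean FPKM over 8 lines on a log axis, for the 23 genes of the pluripotency network list above the filter, with filled and named points for an adjusted p under 0.05 in limma. Klf2, Tcl1, Pou3f1 and Sall4 lie above 0 and Sox15 and Dnmt3l below it.

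The genes whose profile over the 8 lines was most like that of a factor were sought among 11592 genes, by the root mean square difference of log2(FPKM + 1) after each gene was centred on its own mean. This is a description of 8 points that share the split into label forms. Nearest to Pou5f1 were Pycard, an inflammasome adaptor (0.062), Gm12216 (0.13) and Nol4l (0.13), where the median gene was at 0.47. Pycard was at 6.49, 5.34, 2.31 and 2.47 FPKM in control lines 29, 37, 44 and 45 and at 4.86, 3.93, 3.32 and 3.28 FPKM in the ICSI lines. Its ICSI lines lay below the controls in form 1 and above them in form 2. That arrangement follows from its choice as the gene nearest to Pou5f1 and is no separate evidence. Nearest to Dppa3 were Tet3, which oxidizes methylated cytosine (0.14), Triml2 (0.15) and Vamp1 (0.16), with the median gene at 0.58. Nearest to Utf1 were Npr1, a natriuretic peptide receptor (0.21), Stard9 (0.22) and Plxnb1, a semaphorin receptor (0.22), with the median gene at 0.83. Nearest to Zfp42 were Ids, a lysosomal sulfatase (0.068), Pja1, a ubiquitin ligase (0.071), and Noct (0.075), and nearest to Esrrb were Adgrb2 (0.080), Plcg2 (0.083) and Crispld2 (0.085). Klf4 varied less than the median gene and has no neighbours named.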

How the data were processed

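RNA-seq of 8 GS cell lines was analysed. The authors trimmed single reads of 76 bases with cutadapt, aligned them with STAR to mm10, used htseq-count for the counts of each gene and deposited them as FPKM. For label form 1 the processing notes name cutadapt 3.4, HTSeq 0.13.5 and DESeq2 1.30.1, and for form 2 cutadapt 1.16, HTSeq 0.11.2 and DESeq2 1.22.2. The study's methods give the form 1 versions, and which versions made the deposited table is not stated. The authors' own log2 fold changes and adjusted p-values, from DESeq2, were not used.

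Whole reads, within 0.02 of a whole number (wider at high counts), were recovered from FPKM and gene lengths of GENCODE (GRCm38) for 11784 of the 12000 genes tested. A length found by search, since gene models differ between releases, gave whole reads for a further 213, so 99.975% were recovered in all. Genes whose mean over the 8 lines reached 1 FPKM were tested on log2(FPKM + 1) with limma 3.58.1 (R 4.3.3; lmFit, eBayes with trend). Tests were two-sided, and p-values were adjusted over all genes tested by Benjamini-Hochberg, with 0.05 as threshold. The ICSI comparison had the group as its only term, the label form comparison had the group as covariate, and the interaction was fitted with both. Single factors were also tested by exact two-sided permutation. The script was checked on simulated data with large planted changes in genes of higher level and no other label form effect. That check does not show what difference could be found in the low-level factors. Alternatives were a pseudocount of 0.1, no filter, TPM, quantile normalization, limma-voom on recovered reads, the other covariate choice and the omission of each line.

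The genes named were all 9 factors, and of the network list those past the threshold, the 4 with the highest mean and the naive or primed state genes under 0.1 FPKM. For each factor above the filter that varied more than the median gene, the 3 genes nearest to it were named. The members and the lists of markers of germ cells, fibroblasts, Sertoli cells and meiotic and haploid cells were chosen with earlier results of these data known.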

Additional observations from a re-analysis of the deposited data

Results flagged for a closer look

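The Pou5f1 difference between ICSI and control lines ran in opposite directions in the label forms, at -0.42 in form 1 and 0.41 in form 2, with every line of each pair on the side of its form. The difference between the forms was 0.83 (limma interaction, unadjusted p 0.0036, adjusted p 1.0), and it lay between 0.82 and 0.87 under the 4 alternatives run for it, so it fails the correction over all genes under each of them. No level of a factor lay far from the rest of its group among 18 groups of 4 lines. Chance would mark about 1 of 20 groups (Dixon's 95% critical value) if the lines of a group came from 1 normal population. Each group held lines of both label forms, so for factors in which the forms were apart this check could hardly mark a line.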

How the results depend on the processing

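Between ICSI and control lines, no factor passed under any of 15 alternatives, and the lowest adjusted p in limma was 0.999. The sign of the smallest differences was not stable. Pou5f1 came to 0.041 with limma-voom, 0.0034 with a pseudocount of 0.1, 0.011 with quantile normalization and 0.020 with TPM, and lay between -0.22 and 0.20 when each line was left out. Utf1 came to 0.024 with limma-voom and lay between -0.41 and 0.36 on leaving out lines, Dppa3 between -0.41 and 0.14 and Klf4 between -0.13 and 0.011. Esrrb (0.24 to 0.41) and Zfp42 (-0.38 to -0.096) kept their sign under all 15. With no filter, 1 of 23964 genes passed.

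Between label forms, Pou5f1, Utf1 and Dppa3 stayed lower under all 15 alternatives and passed under 8, 9 and 11 of them. Pou5f1 came to -0.54 without control lines 29 and 44 together (chosen after seeing the data) and was at -0.72 with an adjusted p of 0.0599 with no filter, where more genes are tested. Dppa3 moved most with the scale, to -1.75 with limma-voom. Utf1 and Dppa3 came to -1.17 and -0.89 without those 2 lines. On leaving out single lines, Pou5f1 lay between -0.86 and -0.60, Utf1 between -1.69 and -1.16, Dppa3 between -1.06 and -0.80 and Zfp42 between 0.28 and 0.53, passing without ICSI line 21. The count of all genes, 1917, became 1255 with no filter, 401 without the 2 lines and 204 to 2693 without single lines. The network count of 6 became 3 with no filter, 3 without the 2 lines and 1 to 6 without single lines. Of the 8 neighbouring pairs in the order of levels, 7 to 8 kept their order on leaving out lines. The causes were not tested. Depth limits Nanog, Tdgf1 and Dppa3, which have at most 7, 2 and 68 reads per line. No paired analysis was possible because the groups share no replicate numbers.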
